A study of Mus musculus with 172 samples.

Results

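Reciprocal F1 hybrids of the mouse strains C57BL/6J (B6) and DBA/2J (D2) were compared with both parents in cortex and liver. The BD-F1 hybrid is C57/BL/J x DBA/2J F1 in the labels and the DB-F1 hybrid is DBA/2J x C57/BL/J F1. By the usual convention the mother is written first, so that BD-F1 is read here as having a B6 mother and DB-F1 a D2 mother. Members were chosen by genotype, and they are 8 of the 172 libraries of the series: BD-F1 and DB-F1, in each tissue, under each of 2 conditions. Both crosses hold the same autosomal alleles, so that an F1 level can be read against the parents and BD-F1 can be read against DB-F1.

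The study sequenced mRNA of BXD recombinant inbred lines, of their parents and of these F1 hybrids, and each library is a pool of RNA from 3 male mice 11 to 14 weeks old. SD mice were kept awake by gentle handling for 6 h from light onset, and control (Ctr) mice were left to sleep and were killed at the same time of day. Each parental strain has 2 pools per tissue and condition, from the start and the end of the collection, and each F1 cross has 1, so that the Ctr and the SD pool, which hold different mice, are the repeats of a cross. The 12 libraries of parents and F1 per tissue entered each test, and the p-values below measure the spread between such pools.

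A gene whose alleles are expressed independently, each in proportion to its dose, puts a hybrid halfway between its parents on a linear scale. A hybrid that resembles a single parent shows dominance, and a hybrid outside both parents is called overdominant or transgressive. Reciprocal hybrids share their autosomes but not the parent of origin: at an imprinted gene only the allele of a single parent is expressed, and a male takes its X chromosome and its mitochondria from its mother and its Y chromosome from its father.

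The tissues carried their markers, with 8 of 8 hepatocyte markers listed in liver and 2 of 8 in cortex, and with all 21 activity-regulated genes of neurons listed in cortex. Sequencing gave 18995492 to 28685060 counted reads per library in cortex and 5034166 to 7491781 in liver, so that low levels are less precise in liver. The DB-F1 liver Ctr library had the fewest reads of all 43 liver Ctr pools and 304 of 14107 listed genes without a read, against 79 in the BD-F1 library. Its counts differed from those of BD-F1 by a chi-square of 7.55 per gene, where the other pairs of liver pools of a genotype or cross gave 2.12 to 3.63. Summed CPM (the reads of a gene relative to those of its library) of 8 hepatocyte markers was 4565 in that library and 3012 to 3935 in the other 11. Erythroid (335, others 202 to 311) and adipocyte markers (466, others 280 to 388) were highest there too. Those of hypothalamus and thalamus were lowest (65.6, others 85.3 to 105), and those of B cells, macrophages and cholangiocytes lay within the others. Its 100 highest genes held 7.01% of its reads, against 5.85% to 6.48% in the other 11. Counts of called liver genes that moved by over 1.5 times without it are also given without it. Counts at an unadjusted p, by ranges, over gene lists, against cortex and of genes that changed with SD were not taken without it. The ranges of single genes include it. In cortex the 12 striatum markers summed to 333 to 544 CPM in the F1, 318 to 627 in B6 and 278 to 477 in D2, and 7 of 12 choroid plexus markers were listed and summed to 12.5 to 169 CPM in the F1, against 10.2 to 304 in the parents. No marker of any list was called between F1 and mid-parent or between the crosses. In bulk tissue, fewer cells of a type and less RNA per cell cannot be told apart.

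The F1 lay around the midpoint of the parents, with a wider spread over genes in liver than in cortex. The position of the F1 is given as k, which is -1 at the B6 level, 0 at the mean of both parents in CPM (the mid-parent) and 1 at the D2 level. The parents differed (limma, adjusted p under 0.05) at 4042 of 14896 genes in cortex (27.1%) and at 2314 of 14107 in liver (16.4%, or 3870 genes with the replicate block). At the 479 cortex genes with a parental difference of at least a log2 of 1, k had a median of 0.00812, 25% to 75% of the genes lay between -0.157 and 0.179, and 87.3% lay within 0.5 of the mid-parent. At the 739 such liver genes the median was 0.0371, the quartiles were -0.343 and 0.377, and 65.4% lay within 0.5. With the parents called in Ctr pools alone and k read in SD pools alone, the medians were 0.0190 over 435 cortex genes and -0.00990 over 603 liver genes, and 77.0% and 54.9% lay within 0.5. With the parents called in SD and k read in Ctr, 77.1% of 463 cortex genes and 49.1% of 691 liver genes lay within 0.5, and 23.3% of the liver genes lay beyond a parent. Without the DB-F1 liver Ctr library, the median over 754 liver genes was 0.0598, and 63.3% lay within 0.5. All reads were aligned to the B6 reference, and its part in D2 and F1 levels was not tested.

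**Figure D1:**
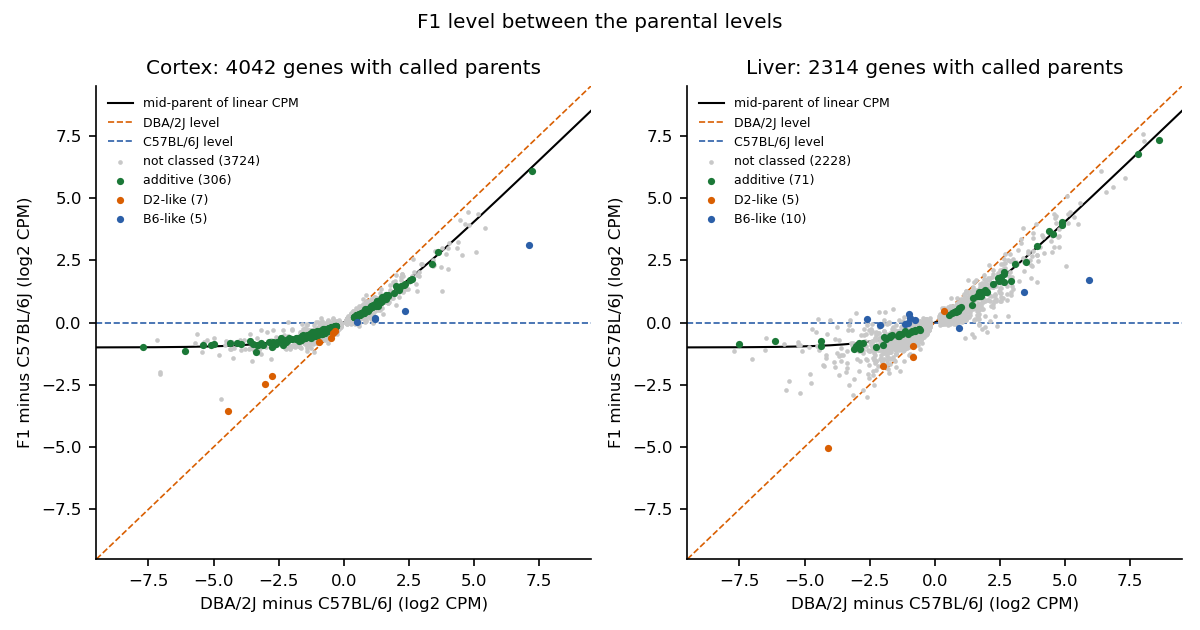
The log2 difference of D2 and B6 (x axis) against that of F1 and B6 (y axis) is plotted for each gene whose parents differed, in cortex (4042 genes) and liver (2314 genes). The black curve is the mid-parent of linear CPM, the dashed lines are the D2 and B6 levels, and coloured points are the genes placed as additive (306 and 71), D2-like (7 and 5) or B6-like (5 and 10). The points follow the curve, more tightly in cortex than in liver.

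A gene was called additive where the parents differed and the 95% interval of k lay wholly within -0.5 and 0.5. This was met by 306 genes in cortex (2.05% of all genes) and 71 in liver (0.503%, or 128 genes with the replicate block). The count rests on the precision of the F1 mean: without the BD-F1 pools it was 153 in cortex and 29 in liver, and without the DB-F1 pools 145 and 32. Most genes with called parents had a wider interval and were not placed, which does not show that they were not additive. The class asks for an F1 set apart from both parental levels, so that gaps between F1 and parental libraries go with it.

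Corin, a membrane protease that activates the precursor of atrial natriuretic peptide, was an additive gene of liver. It was read at 0.441 and 0.30 CPM in the B6 Ctr pools, 112 and 105 in the D2 Ctr pools, 49.4 in BD-F1 and 50.1 in DB-F1. In the SD pools it was read at 0.543 and 0.562 CPM in B6, 95.4 and 93.9 in D2, 46.2 in BD-F1 and 50.6 in DB-F1. All 4 F1 libraries stood apart from every parental library, with k at -0.0356 (95% interval -0.299 to 0.228). Mrap2, an accessory protein of melanocortin receptors, had no read in any B6 liver library. The D2 libraries held 306 and 266 reads in Ctr and 450 and 416 in SD, and the F1 libraries 135 and 98 in Ctr and 161 and 170 in SD, BD-F1 first. The F1 libraries lay below all D2 libraries and above all B6 libraries. Serpina3h, of the serpin protease inhibitors, was higher in D2 in the same way (F1 10.2 to 15.6 CPM, D2 16.7 to 26.7, B6 0.606 to 1.07).

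Additive genes that were higher in B6 included the zinc finger gene Gm14403 (F1 56.4 to 73.2 CPM in liver, B6 80.8 to 127, D2 1.40 to 1.68) and Tceanc2, a gene with a transcription elongation factor domain (F1 23.3 to 29.6 CPM in liver, B6 48.6 to 55.8, D2 1.42 to 3.52). In cortex, 1500004A13Rik was read at 17.6 and 19.1 CPM in B6 Ctr pools, 0.182 and 0.0438 in D2 Ctr pools, 8.47 in BD-F1 and 8.35 in DB-F1. Its SD levels were 24 and 24.6 CPM in B6, 0.143 and 0.0882 in D2, 13.2 in BD-F1 and 13.5 in DB-F1. Both F1 levels were higher in SD than in Ctr, as were both B6 levels, and k was 0.00213 (-0.418 to 0.422). Gm14420 and Rpl29 were placed in the same way, with 17.3% and 49.0% of the 100-base windows of their transcripts shared with other genes, so that reads of their copies may be mixed into both values. Higher in D2 and additive were Dnah6, a heavy chain of ciliary dynein (F1 9.63 to 10.5 CPM, D2 15.9 to 18.6, B6 1.11 to 2.08), AI506816, and Cacna1s, the calcium channel of skeletal muscle (F1 2.17 to 3.37 CPM, D2 3.98 to 8.39, B6 0.517 to 0.60).

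Of 15 genes listed for known sequence or copy-number differences between these strains, 12 were listed in cortex, the parents differed at 7 (27.1% of all genes) and the F1 was placed as additive at 4 (2.05%). In liver 12 were listed, the parents differed at 8 and none was placed as additive, while 7 had an unadjusted p under 0.05 for the deviation from the mid-parent (12.1% of all genes) with none called. Alad, an enzyme of heme synthesis, was read at 23.6 to 28.3 CPM in the 4 B6 cortex libraries, 67.1 to 78.4 in D2 and 44.7 to 54.4 in the F1 (k 0.00446, -0.122 to 0.131). Glo1, glyoxalase 1, was read at 38.1 to 41.9 CPM in B6, 86.9 to 89.1 in D2 and 58.4 to 65.8 in the F1. Gabra2, a subunit of the GABA-A receptor, was read at 33.1 to 44.1 CPM in B6, 67.3 to 77.2 in D2 and 49.1 to 58.9 in the F1. Entpd4, a nucleotidase of intracellular membranes, was read at 148 to 171 CPM in B6, 82.2 to 92.5 in D2 and 101 to 135 in the F1. At all 4 of these genes no F1 library overlapped with a library of either parent. They were named as examples, and such a gap goes with the additive class, which asks for an F1 set apart from both parents. The share of all genes without such overlap was not counted.

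The F1 also expressed genes that were silent in 1 of the parents. In cortex 10 genes had no read in any library of a strain and at least 10 reads in every library of the other, and all 10 had reads in all 4 F1 libraries. In liver this was so for 12 of 13, the exception being the olfactory receptor Olfr1034 with 0 reads in the DB-F1 Ctr library. Trim12a, of a family of antiviral restriction factors, had no read in D2. It had 35, 46, 44 and 33 reads in the B6 cortex libraries and 28, 18, 27 and 28 in the F1, and 177 to 200 in the B6 liver libraries against 136, 71, 62 and 94 in the F1. The F1 cortex libraries held 0, 0, 3 and 0 listed genes without a read, against 13 to 23 in the parental libraries and 8 to 29 in the 66 libraries of 33 BXD/RwwJ lines, at read totals that overlapped.

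Few genes left the mid-parent beyond the spread between pools. In cortex the F1 differed from the mid-parent at 12 of 14896 genes (limma, adjusted p under 0.05, 0.0806%), and in liver at 17 of 14107 (0.121%). At an unadjusted p under 0.05 there were 701 (4.71%) in cortex and 1705 (12.1%) in liver. All 12 cortex genes lay below the mid-parent, nearer to the parent with the lower level, which was B6 for 5 genes (0.0336% of all genes, B6-like) and D2 for 7 (0.047%, D2-like). Leaving out each of the 6 pools in turn gave 10 to 14 calls in cortex, and 6 of the 12 genes were called in every such fit: Sfi1, Stab2, Pisd-ps2, Wwox, Bub1b and 1700019G17Rik. With the mid-parent taken as the mean of log2 levels, which is lower than the linear mean, there were 68 calls, 21 D2-like and 46 B6-like.

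Sfi1, which encodes a centrin-binding protein of the centrosome (mm9 chr11:3031853-3093466), had the smallest p of these genes. Its level in cortex was 37 and 35.5 CPM in the B6 Ctr pools, 176 and 193 in the D2 Ctr pools, 49.2 in BD-F1 and 51.1 in DB-F1. In the SD pools it was 34.5 and 30.4 CPM in B6, 156 and 181 in D2, 41.6 in BD-F1 and 46.2 in DB-F1. The F1 libraries lay just above all B6 libraries and far below all D2 libraries, at 44.6% of the mid-parent (log2 difference -1.16 ± 0.05 SE, adjusted p = 1.65e-10). Among the 33 BXD/RwwJ pools, 5 in Ctr and 6 in SD reached the D2 level, and 16 in each condition lay below both F1 pools.

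Stab2, a scavenger receptor for hyaluronan (mm9 chr10:86303943-86470770), was high in D2 cortex alone. It was read at 0.544 and 0.80 CPM in the B6 Ctr pools, 96.4 and 70.0 in the D2 Ctr pools, 2.19 in BD-F1 and 9.53 in DB-F1. After SD it was read at 0.758 and 0.415 CPM in B6, 114 and 65.5 in D2, 2.96 in BD-F1 and 12.8 in DB-F1. The F1 held 12.5% of the mid-parent (log2 -3.0 ± 0.20 SE, adjusted p = 1.3e-07), while against the mean of log2 levels the deviation was -0.43 and did not pass. None of the 33 BXD/RwwJ pools reached the D2 level in either condition, and their highest was 58.4 CPM in Ctr and 51.2 in SD. The crosses also differed from each other, BD-F1 being lower than DB-F1 by 4.34-fold (log2 -2.12 ± 0.28 SE, adjusted p = 0.00177), and by a log2 of -2.12 in Ctr and -2.11 in SD, a call lost with voom, without a variance trend and in SD pools alone. In liver, where the gene is expressed in all genotypes, the F1 libraries held 97.5, 89.9, 91.4 and 137 CPM, the B6 libraries 112 to 131 and the D2 libraries 212 to 247. There the F1 was again below the mid-parent (-0.76 ± 0.09, adjusted p = 0.00102), and 3 of the 4 F1 libraries were below all B6 libraries.

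Wwox, an oxidoreductase with WW domains, and Pisd-ps2, a transcribed pseudogene of the phosphatidylserine decarboxylase Pisd, were B6-like as well. Wwox was read at 22.9 and 17.3 CPM in BD-F1 and at 17.3 and 15.7 in DB-F1 (Ctr and SD), against 14.1 to 18.5 in B6 and 34.4 to 40.2 in D2. Pisd-ps2 was read at 28.2 and 23.1 CPM in BD-F1 and 29.9 and 30.9 in DB-F1, against 24.4 to 27.6 in B6 and 52.9 to 62.2 in D2. Both overlapped with the B6 range and were clear of D2, with deviations of -0.57 ± 0.05 and -0.59 ± 0.05 (SE, adjusted p = 1.1e-05 for each). Pisd itself, the mitochondrial enzyme that makes phosphatidylethanolamine, held 78.3 to 85.0 CPM in the F1, 74.0 to 84.6 in B6 and 107 to 123 in D2. Its deviation of -0.25 ± 0.04 (adjusted p = 0.0163) was lost without either F1 pool or either D2 pool, and 31.9% of its 100-base windows are shared with C330019G07Rik.

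**Figure D2:**
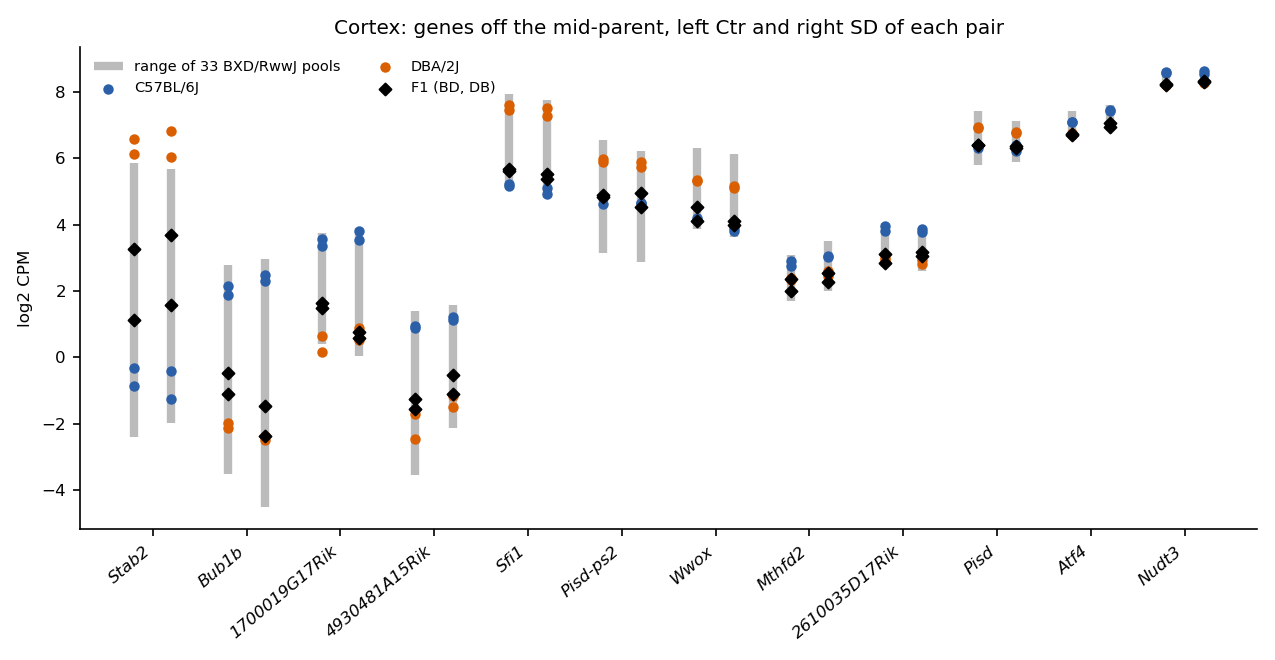
The level in log2 CPM of the 12 cortex genes whose F1 differed from the mid-parent is plotted for each B6, D2, BD-F1 and DB-F1 library, with Ctr on the left and SD on the right of each panel and a grey bar for the range of the 33 BXD/RwwJ pools. On this log axis the F1 points of Sfi1 sit beside B6 (41.6 to 51.1 CPM, with 156 to 193 in D2), while those of Stab2 lie between the parents (2.19 to 12.8 CPM, with 65.5 to 114 in D2).

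On the D2 side, Bub1b, a kinase of the mitotic spindle checkpoint, was read at 4.46 and 3.68 CPM in the B6 Ctr pools, 0.228 and 0.251 in the D2 Ctr pools, 0.721 in BD-F1 and 0.465 in DB-F1. In SD the values were 5.62 and 4.87 CPM in B6, 0.193 and 0.178 in D2, 0.192 in BD-F1 and 0.360 in DB-F1. All F1 libraries were far below B6 (16.2% of the mid-parent, log2 -2.63 ± 0.31 SE, adjusted p = 0.000321). Atf4, the transcription factor that drives the integrated stress response, was far more abundant and moved less. Its F1 levels were 106 and 104 CPM in Ctr and 132 and 122 in SD, against 135 and 135, then 175 and 172, in B6 and 108 and 105, then 125 and 124, in D2. The F1 matched D2 in both conditions (k 0.970, 0.640 to 1.30), with a deviation of -0.21 ± 0.03 (adjusted p = 0.00916), lost without the DB-F1 pools. Mthfd2, a folate enzyme of mitochondria, held 5.16, 3.97, 5.83 and 4.85 CPM in the F1, 6.76 to 8.30 in B6 and 5.03 to 6.00 in D2 (-0.42 ± 0.08, adjusted p = 0.0417). The further D2-like genes were Nudt3, a phosphatase of inositol pyrophosphates (-0.17 ± 0.03, adjusted p = 0.0334), 1700019G17Rik (-1.63 ± 0.20, adjusted p = 0.000535), 2610035D17Rik (-0.41 ± 0.07, adjusted p = 0.0302) and 4930481A15Rik (-1.35 ± 0.24, adjusted p = 0.0334). Mthfd2, Nudt3 and 2610035D17Rik each lost the call in 5 of the 6 fits without a pool, and 4930481A15Rik in 4.

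In liver the 17 genes went both ways, with 9 below and 8 above the mid-parent. They were classed as B6-like at 10 genes (0.0709%) and D2-like at 5 (0.0354%), and at 2 the parents were not called. The liver count depended on single pools: it was 70 without the BD-F1 pools, 4 without the DB-F1 pools, 7 without the DB-F1 Ctr library alone, 6 and 13 without the first and second B6 pools, and 10 and 12 without the first and second D2 pools. With the replicate block, which ties the Ctr and SD pools of a name, it was 491 (154 D2-like and 102 B6-like), and in the Ctr and SD pools fitted apart it was 140 and 4. Serpina1e and Stab2 were the genes called in all 6 fits. Serpina1e, a gene of the alpha-1-antitrypsin family secreted by hepatocytes, was read at 185 and 252 CPM in the BD-F1 and DB-F1 Ctr pools and 219 and 192 in SD, against 175 to 205 in B6 and 25.8 to 38.3 in D2. Its F1 libraries overlapped with B6 and were clear of D2 (0.93 ± 0.11 SE above the mid-parent on the log2 scale, adjusted p = 0.00102), with 14.4% of its 100-base windows shared with its paralogs.

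Rassf4, a protein with a Ras association domain (mm9 chr6:116583026-116623854), was read in liver at 17.1 and 14.1 CPM in the B6 Ctr pools, 225 and 231 in D2, 62.2 in BD-F1 and 41.0 in DB-F1. In SD it was read at 21.7 and 20.1 CPM in B6, 157 and 179 in D2, 40.5 in BD-F1 and 30.8 in DB-F1. The F1 lay between the parents, nearer to B6 (k -0.727, -0.823 to -0.630). The deviation of -1.34 ± 0.15 passed the test (adjusted p = 0.00102), a call lost without the DB-F1 pools. Rab6b, a small GTPase of Golgi transport (mm9 chr9:103014404-103087600), had no read in any F1 liver library. The B6 libraries held 24 to 54 reads and the D2 libraries 0 to 2. Set against a floor of 3 reads over the 4 F1 libraries, its mid-parent was at least 19.8-fold higher than the F1 (adjusted p = 0.00102), a call lost without the first B6 pool. Neto1, an auxiliary subunit of glutamate receptors, was read at 12.2 to 20.4 CPM in D2 liver, 0.147 to 0.562 in B6 and 1.44, 0.363, 1.54 and 0.458 in the F1, and none of the 33 BXD/RwwJ pools reached the D2 level. Its call was lost without the DB-F1 or the first D2 pools.

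Aox3, Cyp2c44, Hamp and Cyp17a1 lay above the mid-parent in liver and were higher in B6 than in D2. Aox3, an aldehyde oxidase, held 653 to 840 CPM in the F1, 703 to 841 in B6 and 307 to 378 in D2 (0.42, adjusted p = 0.0356). Cyp2c44, a P450 epoxygenase, held 240.5 to 309 CPM in the F1, 248 to 305 in B6 and 127 to 145 in D2 (0.38, adjusted p = 0.0407). Hamp, the iron hormone hepcidin, held 50.4 to 70.0 CPM in the F1, 49.4 to 57.2 in B6 and 29.9 to 32.4 in D2 (0.45, adjusted p = 0.0432). At these 3 genes the F1 overlapped with B6 and were clear of D2, and each call was lost in 5 of the 6 fits without a pool. Cyp17a1, a steroid hydroxylase, was read at 31.1 and 43.8 CPM in F1 Ctr pools against 22.9 and 27.7 in B6 and 12.5 and 17.0 in D2, and after SD at 48.1 and 67.5 against 45.3 and 59.6 and against 21.3 and 25.1 (0.75 ± 0.12, adjusted p = 0.0234, lost without the DB-F1 or the first B6 pools). All 4 calls were lost without the DB-F1 pools. Their Ctr library held the 4565 CPM of hepatocyte markers and the 7.01% of reads in its 100 highest genes given above. The part of either was not tested. Below the mid-parent were Col1a1, the main collagen of connective tissue (F1 13.7 and 12.3 CPM in Ctr and 35.4 and 22.7 in SD, B6 39.1 to 63.3, D2 25.3 to 36.0, adjusted p = 0.0421), the scavenger receptor Scara3 (adjusted p = 0.0432) and the metalloreductase Steap2 (adjusted p = 0.0432). Col1a1 lost the call in 4 of the 6 fits without a pool, and Scara3 and Steap2 each in 5.

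The direction of the liver deviations went with read density. Genes were grouped by reads per exonic base over the 12 libraries, and k was turned so that 1 is the parent with the higher level. In liver its median was -0.312, -0.244, -0.119, 0.204 and 0.514 over 5 groups of rising density, and 91.2% of the 57 genes over 0.3 reads per base lay toward the higher parent. Without the DB-F1 Ctr library the 5 medians were -0.30, -0.159, -0.0490, 0.168 and 0.320. In cortex the 5 medians lay between -0.0755 and -0.0203. The reads of a gene followed the depth of the 86 libraries of a tissue with a median log2 slope of 0.839 to 0.992 in cortex, and of 1.76, 1.72, 1.49, 1.07 and 0.539 over the same liver groups, where a slope of 1 is proportional. Of the 17 liver genes, 7 of the 8 with over 0.1 reads per base lay above the mid-parent, and all 8 with at most 0.1 lay below. Among genes with at most 0.1 reads per base alone, 3 were called. The 100 highest genes held 5.85% to 7.01% of the reads in the 12 liver libraries and 14.7% to 15.6% in cortex. The densest gene held 2.92 reads per base in liver and 42.1 in cortex. Where the slope is not 1, CPM need not be proportional to the RNA level. The liver k and classes are therefore positions on the scale of these values and need not be dominance. The part of this scale in the liver classes was not tested.

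**Figure D3:**
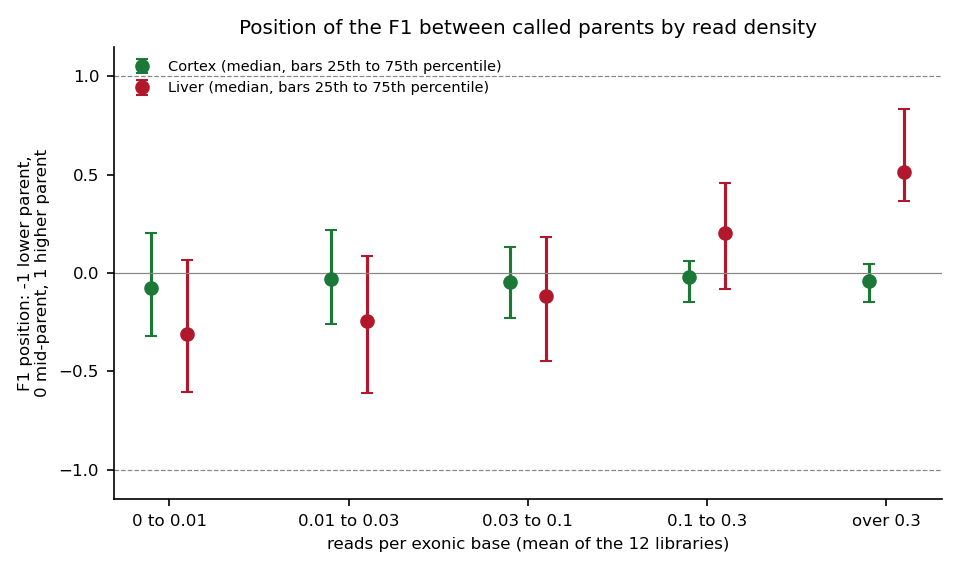
The position of the F1 (y axis, 1 at the parent with the higher level, -1 at the lower, 0 at the mid-parent) is plotted against groups of reads per exonic base (x axis) for genes whose parents differed, as the median with a bar from 25% to 75% of the genes. Cortex medians lie between -0.0755 and -0.0203, and liver medians rise from -0.312 to 0.514.

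No gene was called outside the range of both parents. The test asked that the F1 differ from B6 and from D2 in the same direction, and its lowest adjusted p was 1 in both tissues (limma, 0 of 14896 and 0 of 14107 genes, 0%). The larger of both p-values was taken with 4 F1 libraries, so that 0 calls do not show that no gene lay out of range. With voom on the recovered reads the counts were also 0, and leaving out the second B6 pool gave 1 gene in cortex, Ptgds, a prostaglandin D synthase, named here after its value was seen. At an unadjusted p under 0.05 there were 46 genes in cortex (0.309%, 13 above and 33 below both parents) and 253 in liver (1.79%, 76 above and 177 below). By ranges alone, both F1 pools were beyond all 4 parental pools in Ctr and again, on the same side, in SD at 61 genes in cortex (0.41%) and 157 in liver (1.11%). Against the range of the 33 BXD/RwwJ pools this was met by 0 cortex genes and 1 liver gene, where the B6 pools gave 4 and 6 genes and the D2 pools 9 and 10. The liver gene was Obp2a, an odorant-binding lipocalin, named after its values were seen. Its F1 levels of 99.8 and 137 CPM in Ctr and 120.03 and 109 in SD lay between 7.32 to 10.5 in B6 and 164 to 210.5 in D2, and above the highest line in Ctr (99.5 CPM) and in SD (81.6 CPM).

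Genes named for their distance outside both parents in each condition are given as values. In cortex Rimbp3, a protein of spermatid development, was read at 3.54 and 2.49 CPM in F1 Ctr pools and 2.82 and 3.13 in SD, against 3.87 to 4.96 in parental Ctr pools and 3.52 to 4.29 in SD (log2 -0.44 to the nearer parent, adjusted p = 1). Its F1 libraries lay below every parental library of the same condition. Drd2, a dopamine receptor and a striatum marker, was read at 5.87 and 1.65 CPM in F1 Ctr pools and 2.37 and 3.87 in SD, against 0.327 to 4.96 in the parents, so that the ranges overlapped. In liver Il13ra2, a receptor of interleukin 13, held 3.46, 3.61, 3.45 and 2.93 CPM in the F1 and 0.453 to 2.64 in the parents (log2 1.44, adjusted p = 1). Ppp1r3g, a regulator of glycogen synthesis in liver, was read at 2.02 and 2.74 CPM in the F1 Ctr pools, within the parental 0.572 to 3.53, and at 13.4 and 13.5 after SD, above the parental 1.94 to 3.61. In Atp6v0a4, a subunit of the vacuolar proton pump, 3 of 4 F1 libraries held 0.291 to 0.670 CPM, under the parental 1.56 to 3.72, and the DB-F1 SD library held 2.78.

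BD-F1 and DB-F1 differed in cortex at 12 of 14896 genes (limma, adjusted p under 0.05, 0.0806%) and in liver at 0 of 14107 (0%). At an unadjusted p under 0.05 the counts were 1156 (7.76%) and 847 (6%), and with voom 9 and 0. The liver count was 30 with the replicate block, which ties the Ctr and SD pools of a name, and 896 in the Ctr pools alone, where a cross has 1 library and the spread comes from the parental pools. Leaving out each parental pool in turn gave 10 to 12 calls in cortex and 0 to 3 in liver. Of the 12 cortex genes, 10 were called in all 4 such fits. These fits keep the BD minus DB difference and change only its spread, so that they do not show whether the difference repeats. Without a variance trend, 3 cortex genes were called. Of the 12 genes, 7 lie in or beside imprinted domains, 3 on the X chromosome, and the others are Stab2 and A230073K19Rik, which was read at 23.9 and 25.4 CPM in BD-F1 and 45.7 and 31.6 in DB-F1 (log2 -0.62 ± 0.11, adjusted p = 0.0463, lost without the second B6 pool or either D2 pool, with voom and in SD pools alone). Of the 7 genes, Snrpn, Ndn, Plagl1 and Zrsr1 are in the fixed imprinted lists, and the rest were placed by position. The share of all genes in or beside such domains was not counted, and 528 of the 14896 genes are X-linked.

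The widest differences came from the imprinted domain on chromosome 7, where in mouse only the paternal allele of many transcripts is active. In the RefSeq order of this region, Ipw, Snrpn, B230209E15Rik, A230057D06Rik, A330076H08Rik and Ndn lie among small RNAs and unlisted genes. All but A330076H08Rik (log2 difference -0.87, adjusted p = 0.173) were called. Ube3a, Snord64, C230091D08Rik and D7Ertd715e, which lie in the same stretch, were not called (adjusted p = 0.636 to 0.932), and the last 2 are older names of the antisense transcript Snhg14. A230057D06Rik was read at 4.07 CPM in BD-F1 and 17.7 in DB-F1 in Ctr, and at 2.47 and 16.7 in SD, against 14.3, 17.3, 15 and 14.6 in the B6 libraries and 3.92, 4.03, 2.43 and 2.99 in D2. BD-F1 held the level of D2, its father, and DB-F1 the level of B6, its father (BD minus DB log2 -2.44 ± 0.17 SE, adjusted p = 5.24e-07). B230209E15Rik was read at 28.5 and 25.8 CPM in BD-F1 (Ctr and SD) and 56.0 and 47.5 in DB-F1, against 49.5 to 55.7 in B6 and 29.5 to 31.9 in D2 (-0.93 ± 0.08, adjusted p = 1.81e-05). Ipw, a noncoding transcript, was read at 1.21 and 1.97 CPM in BD-F1 and 5.44 and 5.13 in DB-F1, against 4.72 to 5.98 in B6 and 1.43 to 1.96 in D2 (-1.77 ± 0.20, adjusted p = 0.000413). At each of these 3 genes the BD-F1 libraries were clear of all B6 and DB-F1 libraries.

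Snrpn, an mRNA splicing protein of brain (mm9 chr7:67127388-67285105), and Ndn, the growth suppressor necdin (mm9 chr7:69493163-69494814), went the other way, with B6 as the lower strain. Snrpn was read at 1.70 and 1.83 CPM in BD-F1 and 0.339 and 0.184 in DB-F1, against 0.136 to 0.469 in B6 and 1.68 to 2.48 in D2 (log2 2.82 ± 0.41 SE, adjusted p = 0.00503). The Snrpn levels of B6 and DB-F1 lay near that of a gene without reads, so that they rest on few reads. Snurf, the next gene in the RefSeq order, shares an older name with Snrpn and was not listed. How reads were divided between them was not tested, so that these values need not be the whole level of Snrpn in any strain. Ndn was read at 128 and 121 CPM in BD-F1 and 84.0 and 77.9 in DB-F1, against 87.6, 85.3, 75.2 and 82.5 in B6 and 129, 133, 152 and 125 in D2 (0.62 ± 0.08, adjusted p = 0.00159). Each F1 matched its father here too. The 33 BXD/RwwJ pools held 121 to 171 CPM of Ndn in Ctr and 122 to 165 in SD, so that none was as low as B6 or DB-F1, although these lines carry alleles of both strains. For A230057D06Rik, in the same domain, the lines spanned 2.53 to 23 CPM in Ctr, the range of both parents and more.

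Plagl1 and Zrsr1, in imprinted domains of chromosomes 10 and 11, were the other 2 listed imprinted genes called. Plagl1, a zinc finger regulator of growth (mm9 chr10:12810497-12851500), was read at 20.6 and 20.9 CPM in BD-F1 and 29.98 and 29.4 in DB-F1, against 29.8 to 32.9 in B6 and 18.6 to 23.4 in D2 (-0.52 ± 0.09, adjusted p = 0.0294). Zrsr1, a splicing factor gene that arose as a retrogene (mm9 chr11:22873215-22876498), was read at 74.8 and 77.7 CPM in BD-F1 and 92.7 and 96.3 in DB-F1. Its parents were not called different (80.9 to 87.8 CPM in B6, 81.3 to 86.7 in D2), and the F1 lay on both sides of them (-0.31 ± 0.06, adjusted p = 0.047, lost without either D2 pool, with voom, with median-centred libraries and in Ctr or SD pools alone, among others). The promoters of the 3 protein-coding genes with a single RefSeq start among these are printed to show the CG pairs that imprinting can methylate. They run 5′ to 3′ on the strand of the gene, 300 bases each, in build GRCm38.p6, with CG in capitals, and start 250 bases before the gene. Ndn lies at chr7:62348027-62348326 (plus strand), Plagl1 at chr10:13090582-13090881 (plus strand) and Zrsr1 at chr11:22971755-22972054 (plus strand).
Ndn: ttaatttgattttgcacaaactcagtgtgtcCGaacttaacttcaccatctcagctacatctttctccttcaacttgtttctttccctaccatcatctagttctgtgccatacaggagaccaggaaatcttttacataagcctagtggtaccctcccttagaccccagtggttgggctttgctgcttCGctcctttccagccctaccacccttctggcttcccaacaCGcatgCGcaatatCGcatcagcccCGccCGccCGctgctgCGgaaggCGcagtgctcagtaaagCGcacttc
Plagl1: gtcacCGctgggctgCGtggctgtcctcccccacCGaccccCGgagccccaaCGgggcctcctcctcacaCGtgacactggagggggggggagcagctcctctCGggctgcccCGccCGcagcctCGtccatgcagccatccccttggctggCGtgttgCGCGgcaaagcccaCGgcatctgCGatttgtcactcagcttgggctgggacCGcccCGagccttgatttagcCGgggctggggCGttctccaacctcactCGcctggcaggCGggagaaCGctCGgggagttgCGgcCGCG
Zrsr1: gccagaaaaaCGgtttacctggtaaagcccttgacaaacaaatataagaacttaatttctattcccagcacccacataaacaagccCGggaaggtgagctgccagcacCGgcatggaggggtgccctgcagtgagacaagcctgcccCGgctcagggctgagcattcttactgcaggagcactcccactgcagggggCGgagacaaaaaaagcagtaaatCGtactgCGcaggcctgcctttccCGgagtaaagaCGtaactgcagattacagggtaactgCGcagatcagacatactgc
They hold 11, 26 and 10 CG, where the median of 32851 RefSeq promoters of this length is 7, and 41.4%, 16.9% and 43.5% of all promoters hold as many. Methylation was not measured in these libraries.

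**Figure D4:**
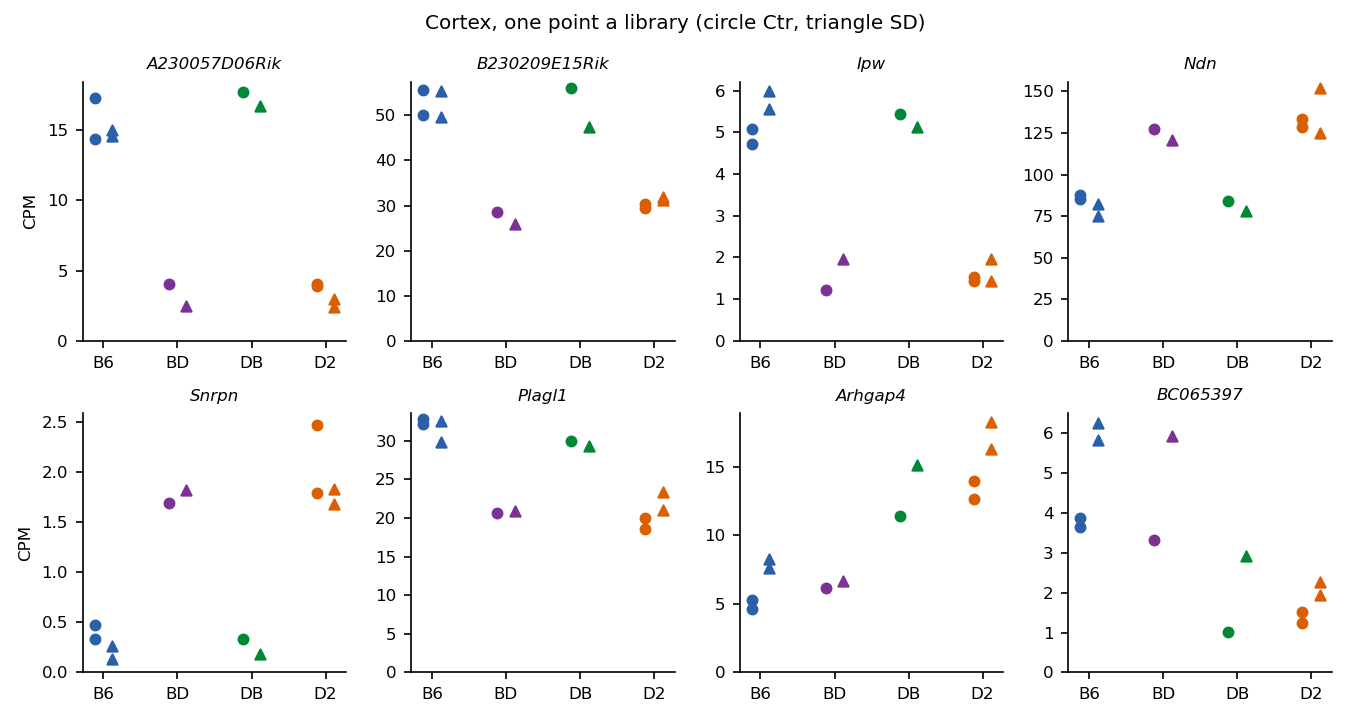
The level in CPM (y axis) of 8 genes that differed between BD-F1 and DB-F1 in cortex is plotted for each library of B6, D2, BD-F1 and DB-F1, with circles for Ctr and triangles for SD. At A230057D06Rik, B230209E15Rik, Ipw, Ndn, Snrpn and Plagl1 each cross sits with its father's strain, and at the X-linked Arhgap4 and BC065397 with its mother's, as for Ndn with 121 to 128 CPM in BD-F1 and 77.9 to 84.0 in DB-F1.

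Over the listed paternally expressed genes, 25 of 28 were read in cortex, 4 were called between the crosses and 7 had an unadjusted p under 0.05 (28%, against 7.76% of all genes). Parents differed at 9 of them, and over these 9 the BD minus DB difference followed the B6 minus D2 difference with r = -0.972 and a slope of -0.918, a description across genes that share their libraries. The relation rests on Snrpn, which had few reads in B6 and DB-F1, and on Ndn and Plagl1. By contrast, Nnat, Peg3 and Nap1l5 had parents that differed by log2 0.19 to 0.35 and crosses that differed by at most 0.07. Of 29 maternally expressed genes, 25 were read, 0 were called (limma) and 3 had an unadjusted p under 0.05 (12%). In liver, Rian and Meg3, maternally expressed noncoding RNAs of chromosome 12, had the lowest p of both lists without passing the test. Rian was read at 15.3 and 9.36 CPM in BD-F1 and 1.01 and 1.39 in DB-F1, against 1.91 to 6.53 in the parents (log2 3.33 ± 0.51, adjusted p = 0.122). Meg3 was read at 9.08 and 3.8 CPM in BD-F1 and 0.147, which is no read, in the DB-F1 Ctr library and 0.768 in its SD library, against 0.736 to 3.55 in the parents (adjusted p = 0.197). At both genes the BD-F1 libraries were above all parental libraries of either strain.

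The crosses followed their mothers at 3 X-linked genes. Arhgap4, a GTPase-activating protein (mm9 chrX:71136781-71167209), was read in cortex at 6.14 and 6.68 CPM in BD-F1 (Ctr and SD) and 11.4 and 15.1 in DB-F1, against 4.63 to 8.30 in B6 and 12.6 to 18.2 in D2 (log2 -1.04 ± 0.14 SE, adjusted p = 0.00159). BC065397 (mm9 chrX:133276397-133277682) was read at 3.32 and 5.93 CPM in BD-F1 and 1.01 and 2.92 in DB-F1, against 3.64 to 6.25 in B6 and 1.23 to 2.28 in D2 (1.37 ± 0.22, adjusted p = 0.0131). Cd99l2, a membrane glycoprotein (mm9 chrX:68673235-68746024), was read at 96.9 and 99.2 CPM in BD-F1 and 123 in both DB-F1 libraries, against 102 to 107 in B6 and 122 to 129 in D2 (-0.33 ± 0.05, adjusted p = 0.00831). BD-F1 lay nearer to B6 and DB-F1 nearer to D2 at all 3, in both conditions.

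Of 528 X-linked genes listed in cortex, the parents differed at 88, and at 60 of these (68.2%) the BD minus DB difference had the sign of B6 minus D2. On the autosomes this was so at 1993 of 3950 genes (50.5%). In liver the counts were 48 of 61 on the X chromosome (78.7%) and 1294 of 2249 on the autosomes (57.5%). The sign held in both conditions at 46 of the 88 X-linked genes in cortex and 33 of the 61 in liver. Among autosomal genes it held in both conditions at 1226 of 3950 in cortex and 695 of 2249 in liver. Across genes, r was 0.756 and the slope 0.481 on the X chromosome in cortex and 0.611 and 0.409 in liver, against an r of 0.00652 and 0.00932 on the autosomes. F1 and parental libraries are different pools, and genes of a library share its depth and tissue. With an unadjusted p under 0.05 there were 71 X-linked genes in cortex (13.4%, against 7.55% of autosomal genes) and 39 in liver (8.74%, against 5.91%). In liver the share of X-linked genes with the maternal sign was 69% without the DB-F1 Ctr library, and 65.5% and 57% in the Ctr and SD pools fitted apart.

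**Figure D5:**
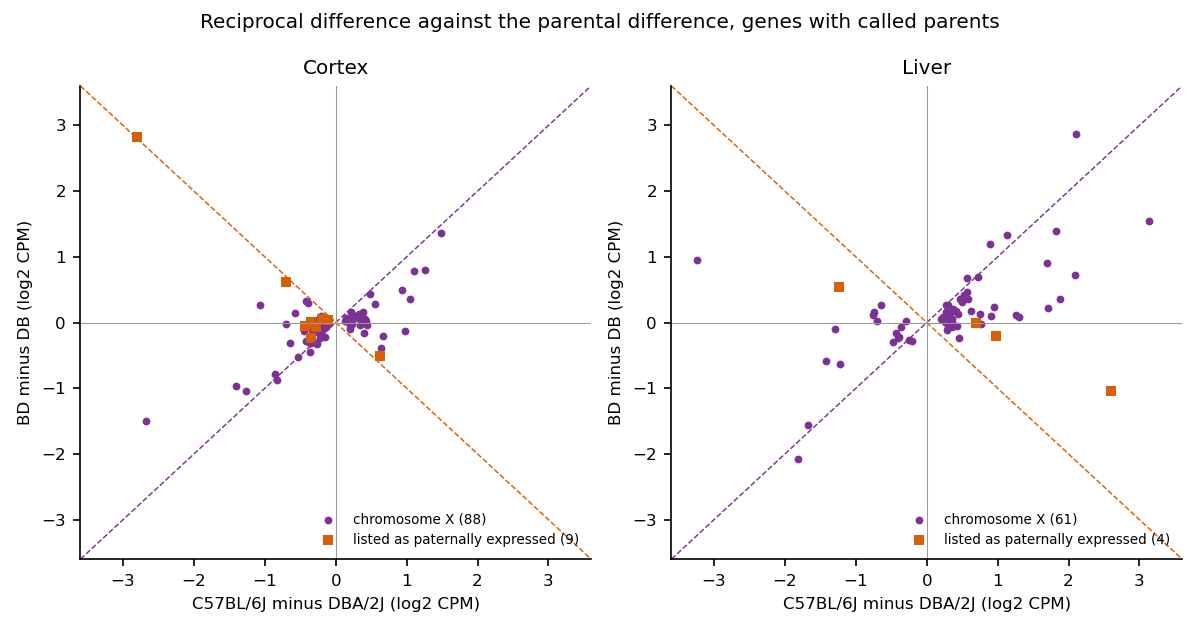
The log2 difference of BD-F1 and DB-F1 (y axis) is plotted against that of B6 and D2 (x axis) for X-linked genes (88 in cortex, 61 in liver) and paternally expressed imprinted genes (9 and 4) whose parents differed, with dashed diagonals for equal and for opposite differences. X-linked genes rise with the maternal strain (slopes 0.481 and 0.409), and the paternally expressed genes of cortex fall along the opposite diagonal (slope -0.918).

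The 4 Y-linked genes that were listed (Ddx3y, Uty, Kdm5d and Eif2s3y) were not called between the crosses in either tissue. Kdm5d, a histone demethylase, was the Y-linked gene with parents that differed, at 33.6 to 39.7 CPM in B6 cortex and 30.8 to 34.2 in D2 cortex. Its levels of 30.1 and 33.4 in BD-F1, with a D2 father, and 33.7 and 34.9 in DB-F1 overlapped with both strains (-0.11 ± 0.07, adjusted p = 0.676). Among other lists, nuclear-encoded subunits of the mitochondrial respiratory chain had an unadjusted p under 0.05 at 33 of 89 in cortex (37.1%). Activity-regulated genes had such a p at 9 of 21 (42.9%), against 7.76% of all genes, with none called in either list. The differences had the same sign in Ctr and SD at 67 of the 89 and 15 of the 21, against 8878 of all 14896 genes. In liver no respiratory chain subunit reached that p. The summed choroid plexus markers, for comparison, were 74.0 and 15.7 CPM in BD-F1 and 12.5 and 169 in DB-F1 (Ctr and SD), and their part in these values was not tested.

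The F1 response to SD was not called different from the mean response of the parents at any gene. In cortex 2993 genes changed with SD in the F1 (20.1%, 1596 up and 1397 down) and 5693 in the parents (38.2%), with 4 and 8 libraries. In liver the counts were 1538 (10.9%, 848 up and 690 down) and 2497 (17.7%). A different response was called at 0 genes in either tissue (limma, 0%, with an unadjusted p under 0.05 at 525 or 3.52% in cortex and 994 or 7.05% in liver, and 0 and 0 with voom). In liver the count was 530 without the BD-F1 pools, 18 without the DB-F1 Ctr library, 7 without both DB-F1 libraries, 3 and 4 without the first or second B6 pool, and 1 without either D2 pool.

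Activity-regulated genes, which neurons switch on when they fire, rose in F1 cortex at 20 of 21, with a median log2 response of 1.34 beside 1.35 in the parents. Arc, which remodels synapses, rose by a log2 of 3.16 in BD-F1 and 3.86 in DB-F1, against 1.95 to 3.76 in the 4 pairs of parental pools (adjusted p of the F1 response 3.66e-06). Homer1, whose short form loosens the postsynaptic scaffold, rose by 0.56 and 0.80, against 0.69 to 1.13. Genes of the heat shock response rose at 14 of 14 (median 0.62, parents 0.54), among them the chaperone Hspa8 by 0.74 and 0.62, against 0.62 to 0.92. Glucocorticoid-responsive genes rose at 12 of 13 (median 0.91, parents 0.74), among them the kinase Sgk1 by 0.88 and 1.08, against 0.56 to 0.94. Of 18 clock genes 7 rose and 3 fell. Dbp, an output of the circadian clock, fell by 0.72 and 0.59 on the log2 scale in BD-F1 and DB-F1, where the 4 parental pairs gave -0.91, -1.07, -1.20 and -0.91. Both F1 responses of Dbp were smaller than all 4 parental ones, without passing the test of the difference (0.37 ± 0.14, adjusted p = 0.996).

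In F1 liver 8 of 14 glucocorticoid-responsive genes rose (median 0.87, parents 0.60), 9 of 14 heat shock genes rose (0.62, parents 0.69) and 14 of 23 genes of cholesterol synthesis fell (-0.40, parents -0.25). Fkbp5, a chaperone of the glucocorticoid receptor, rose by a log2 of 1.83 in BD-F1 and 2.35 in DB-F1, against 1.06 to 1.93 in the parental pairs. Mt2, a metallothionein that binds zinc, rose by 3.45 and 3.37, against 1.34 to 2.03 in the parental pairs. The Mt2 response of both crosses was above all 4 parental ones, by 1.83 ± 0.66 on the log2 scale (adjusted p = 0.602). Per1, of the circadian clock, rose by 1.01 and 1.21, against 0.13 to 0.84 (difference 0.55 ± 0.17, adjusted p = 0.506).

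Further lists were read against the mid-parent in liver. They were not matched for read density, with which the direction of the liver deviations went. The DB-F1 Ctr library was kept, and the part of either in these values was not tested. Of 22 genes that are male-biased under growth hormone, Serpina1e was called and 8 had an unadjusted p under 0.05 (12.1% of all genes), and of 36 xenobiotic P450 genes, Cyp2c44 was called and 9 had that p. Genes of glutathione, glucuronide and sulfate conjugation had that p at 18 of 41, with a median deviation of 0.15 and none called. The 11 female-biased genes listed had a median of 0.24 and a median absolute deviation of 0.59, beside 0.10 over all genes, with 3 such genes. Among 23 interferon-stimulated genes read in liver, the median F1 deviation was -0.26 on the log2 scale beside -0.01 over all genes, with an unadjusted p under 0.05 at 13 of 23, against 12.1% of all genes. In cortex the same list had a median of -0.09 and 2 of 23 such genes. MHC genes of liver had a median deviation of 0.15 and 5 of 24. Cytosolic ribosomal proteins of cortex, read at 73 of 75, had a median of 0.02, parents that differed at 17, and 8 additive genes, against 2.05% of all genes.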

How the data were processed

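The deposited values are log2 CPM, made by the authors from single-end reads of stranded poly(A) libraries that STAR had mapped to mm9 and HTSeq had assigned to RefSeq genes. The authors left out genes with a mean raw count under 10 and scaled libraries by TMM in edgeR, with Ctr and SD of a tissue together. A gene without reads is listed at 0.0438 (Ctr) or 0.0436 CPM (SD) in cortex and at 0.147 or 0.149 in liver. All values gave whole reads to within 0.02 read. Groups came from the labels.

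limma 3.58.1 (R 4.3.3) was fitted to log2 CPM of the 12 libraries of parents and F1 per tissue, with terms for B6, D2, BD-F1, DB-F1 and condition, a trended variance and Benjamini-Hochberg adjustment over all genes. The position k has a delta-method 95% interval. B6-like and D2-like genes had called parents, a called deviation and a k on that parent's side of 0. Out of range took the larger of both p-values. Correlations and slopes across genes are descriptions. Alternatives were voom on recovered reads, a replicate block, other mid-parents and filters, and leaving out pools. Calls were tested on simulated data. Genes were named from those called off the mid-parent or between the crosses and from the lists, whatever their level, and, at a mean log2 CPM of at least 0, from those ranked highest by size in a class or beyond the parents. The study paired Ctr and SD mice within cohorts and collected the first and second parental pools at its start and end. Differences between pools of a genotype or cross in Ctr and in SD correlated at -0.00347 to 0.141 across genes (Spearman -0.0752 to 0.223), and the replicate block took the pool as the pair. The members, lists and tests were chosen with earlier results of these data known. Promoters are from RefSeq (GRCm38.p6), and 13903 of 14896 cortex and 13218 of 14107 liver genes matched the mm9 annotation.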

Additional observations from a re-analysis of the deposited data

Results flagged for a closer look

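The F1 deviation from the parents differed between liver and cortex at 14 of 12695 genes listed in both tissues (limma on the differences per pool, adjusted p under 0.05). Leaving out any 1 pool gave 1 to 6 genes, Ctr or SD pools alone gave 0, and the replicate block gave 25. Here the deviation is the F1 level over the mean of the parents' log2 levels, liver minus cortex, which is not the linear mid-parent. A hybrid at the linear mid-parent lies above that mean wherever its parents differ. A parental difference that is wider in 1 tissue can thus give a call without a departure from additivity in CPM. The part of the scale in these 14 calls was not tested. It was lower in liver for the ribosomal protein genes Rpl21 (-1.32), Rpl3 (-0.98) and Rps18 (-0.76). It was higher in liver for Isoc2b (0.67), Trim12a (0.98), Crym (1.35), C130046K22Rik (1.62), 4930412C18Rik (1.74), Gm5506 (1.87), Adra1d (2.07), Disp2 (2.44), Gm5077 (2.56), H2-Ea-ps (2.73) and Mrap2 (3.17). On the linear scale, not tested between tissues, the deviation was higher in liver at Rpl21 (0.10 in cortex, 0.31 in liver), Rpl3 (0.04 and 0.13) and Rps18 (0.09 and 0.41). It was lower in liver at Trim12a (0.19 and 0.13) and Mrap2 (-0.15 and -0.29). The other genes kept the direction given above, some with small values, as for Crym at -0.06 and -0.04. Rpl21 was read at 29.6 to 37.8 CPM in B6 cortex, 0.820 to 1.34 in D2 cortex and 17.3 to 21.3 in F1 cortex, and at 83.7 to 98.0 and 64.1 to 75.5 in B6 and D2 liver. Crym, a thyroid hormone binding protein, was read at 1.94 to 2.51 CPM in B6 liver, 45.7 to 53.7 in D2 liver and 22.7 to 29.2 in the F1, whereas both strains overlapped in cortex. Disp2, of the Dispatched family, was read at 8.28 to 13.3 CPM in B6 liver, 0.327 to 0.513 in D2 liver and 7.50 to 13.8 in the F1, which overlapped with B6. The linear deviation of Disp2 was 1.07 in liver, and it was not called there.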

How the results depend on the processing

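Counts named here are those that moved by over 1.5 times, and the cause was not tested except where an alternative has fewer genes or libraries. Parents differed at 2324 cortex genes in Ctr pools alone, 1808 in SD pools alone and 1414 among genes with at most 0.1 reads per exonic base (1358 in liver), an alternative chosen after seeing the data. Genes off the mid-parent numbered in cortex 7 without a variance trend, 7 at low density, 6 with conditions averaged, 5 in Ctr, 6 in SD and 68 with log2 mid-parents, and in liver 6, 3, 41, 140, 4 and 160 (36 with voom). D2-like genes numbered 3 without a trend, 2 averaged, 1 in Ctr, 2 in SD and 21 with log2 mid-parents in cortex, and 1, 11, 28, 0 and 60 in liver (1 at low density, 10 with voom, 3 with the prior count removed). B6-like genes numbered 2 at low density and 46 with log2 mid-parents in cortex, and 2 and 75 in liver (4 without a trend, 23 with voom, 23 averaged, 37 in Ctr, 3 in SD). Additive genes numbered 87 at low density, 143 in Ctr, 107 in SD and 38 with k within 0.25 in cortex, and 42 at low density, 43 in Ctr and 4 within 0.25 in liver. BD-F1 and DB-F1 differed in cortex at 3 genes without a trend, 5 at low density and 2 in SD, and in liver at 896 in Ctr. Liver against cortex gave 0 genes in Ctr and 0 in SD, and the maternal share of X-linked liver genes was 65.5% and 57%. The counts of 140 and 4 in single conditions kept BD-F1 and DB-F1 as separate terms. With the F1 as 1 group the liver gave 13 genes in Ctr, 10 of them with the same sign in SD, and 64 in SD, 48 with the same sign in Ctr (59.8% of all genes). Without a trend, no gene off the mid-parent was called in Ctr alone to be read in SD.

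Leaving out a pool at a time gave, in cortex, 2888 to 4022 parental differences, 10 to 14 genes off the mid-parent, 145 to 291 additive, 4 to 8 D2-like (4 without the second B6 pool or BD-F1), 4 to 7 B6-like, 0 to 1 out of range and 10 to 12 between the crosses. In liver it gave 1348 to 2570, 4 to 70, 29 to 60 additive, 1 to 18 D2-like, 2 to 18 B6-like, 0 to 3 between the crosses, 1 to 530 for the response, 1 to 6 against cortex and a maternal X share of 65.6% to 79.3%. Without the DB-F1 liver Ctr library, chosen after seeing the data, D2-like genes numbered 2 and B6-like genes 5.

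With the replicate block the liver gave 3870 parental differences, 491 genes off the mid-parent, 128 additive, 154 D2-like, 102 B6-like, 30 between the crosses and 25 against cortex, at an estimated correlation of -0.31 between the Ctr and SD libraries of a pool, which is below 0. In cortex the block gave 3835, 11, 287, 6, 5 and 10 in the same order.

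No direction turned at the named genes for F1 against mid-parent, BD-F1 against DB-F1, or liver against cortex. For the nearer parent no gene changed sides, but an F1 that returned into the parental range was not counted as a turn. For position only the loss of the additive class was recorded, not the sign of k. Single-gene responses to SD were not run under these alternatives. Depth limits the liver more than the cortex, as 1 read in liver is worth about 0.15 CPM.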
